A study of Mus musculus with 10 samples.

Results

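The genes for mitochondrial ribosomal proteins were examined in the adult hippocampus of offspring of estradiol-treated and control mothers. They were taken as all non-control probes whose gene name in the array files starts with Mrpl or Mrps followed by a digit, which gave 76 genes on 126 of 41174 probes. By name, 47 belong to the large ribosomal subunit (Mrpl) and 29 to the small subunit (Mrps). All 76 genes had a probe that entered the test and were well above background on all 10 arrays, as were 17559 of the 20065 genes tested. Of the 126 probes, 123 entered, and the other 3 (1 probe each for Mrpl33, Mrpl47 and Mrpl52) were too dim.

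HE offspring came from ICR dams given estradiol valerate by mouth, dissolved in corn oil, at 100 µg/kg per day from embryonic day E5.5 to E11.5. NC offspring came from ICR dams given the same volume of corn oil. Hippocampal total RNA of 5 adult offspring per group, all labelled male, was measured on 1-colour Agilent arrays. Dams of both groups received corn oil. The labels do not give the dams or litters, so p-values measure only the spread between these 10 samples.

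The mitochondrial ribosome sits in the mitochondrial matrix and translates the few messenger RNAs of the mitochondrial genome, which encode core subunits of the respiratory chain and of ATP synthase. Its RNAs come from mitochondrial DNA, whereas all of its proteins are encoded in the nucleus, made in the cytosol and imported. Many of them descend from bacterial ribosomal proteins and others are specific to mitochondria, and neurons depend on their product because the respiratory chain supplies much of their ATP. The names do not always match the place in the particle: the proteins of Mrps30 and Mrps18a are part of the large subunit, and the protein of Mrps36 is a component of the 2-oxoglutarate dehydrogenase complex.

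Probes that carried the main differences are shown first, as 60-base sequences from the array files. They are the probes of Mrpl2 and Mrpl4, the genes called higher in HE, those of Mrpl21 and Mrpl24, which were called lower, and several probes each along Mrps5 and Mrpl44, with 1 of Mrpl3, where probes of the same transcript differed. The number after a name is the first base of the probe in its RefSeq transcript. Positions are mm9, and a probe that covers more than 60 bases of the genome crosses an intron; the files do not give exons or coding ends.
Mrpl2 435 (chr17:46785301-46785453): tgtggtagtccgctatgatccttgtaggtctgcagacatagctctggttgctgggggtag
Mrpl4 853 (chr9:20812172-20812313): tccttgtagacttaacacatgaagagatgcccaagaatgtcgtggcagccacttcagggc
Mrpl21 372 (chr19:3286978-3287037): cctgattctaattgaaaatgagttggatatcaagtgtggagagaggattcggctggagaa
Mrpl24 730 (chr3:87727137-87727196): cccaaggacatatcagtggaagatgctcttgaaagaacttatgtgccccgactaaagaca
Mrps5 143 (chr2:127416514-127417605): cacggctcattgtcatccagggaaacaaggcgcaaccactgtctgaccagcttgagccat
Mrps5 852 (chr2:127426599-127427149): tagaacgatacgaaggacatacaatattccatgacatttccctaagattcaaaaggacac
Mrps5 1076 (chr2:127429365-127429424): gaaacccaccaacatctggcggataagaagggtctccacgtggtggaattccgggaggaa
Mrpl44 373 (chr1:79774512-79774571): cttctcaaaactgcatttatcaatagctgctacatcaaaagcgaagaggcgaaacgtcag
Mrpl44 765 (chr1:79776065-79776124): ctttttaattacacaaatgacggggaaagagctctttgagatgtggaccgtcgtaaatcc
Mrpl3 771 (chr9:104966444-104973754): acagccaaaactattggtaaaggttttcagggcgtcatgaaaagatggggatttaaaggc

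Slide and the markers of thalamus and myelin moved with the groups. The per-array medians of the other marker lists overlapped between the groups. Values are given here because they touch every result below. The arrays lay on 3 slides: HE 3, HE 4 and HE 5 were alone on slide 3, the first 4 NC arrays were alone on slide 1, and only slide 2 mixed the groups, with HE 1, HE 2 and NC 5. Xist was high on 7 arrays (HE 1 to HE 3 and NC 1 to NC 4), with the Y-linked gene Ddx3y near the floor there, against the male label; Ddx3y was high on HE 4, HE 5 and NC 5. This pattern crossed the groups, and with it as a covariate 7 members were called lower and 2 higher, with 8 of the 9 calls kept. Of 15 marker genes of thalamus and habenula, 10 were lower in HE and none was higher, with per-array medians of -0.74 to 0.63 in HE and 0.83 to 3.04 in NC. Of 12 myelin and oligodendrocyte markers, 9 were lower in HE and none was higher, with medians of 2.68 to 3.21 in HE and 3.77 to 4.03 in NC, and hippocampal excitatory neuron markers had 2 of 12 higher and none lower, with medians of -0.38 to 1.69 in HE and -1.12 to 1.14 in NC. Liver markers lay at -8.56 to -6.81 in HE and at -7.75 to -1.48 in NC, where NC 1, NC 2 and NC 4 had the highest medians, and 5 of 10 were called lower in HE. In bulk tissue, fewer cells of a type and less RNA per cell cannot be told apart, and the part of the myelin, neuronal and liver markers in the results was not tested; a fit with the thalamic markers is given with the counts.

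Most mitoribosomal genes did not differ between HE and NC beyond the test's threshold. With limma and Benjamini-Hochberg adjustment over all 20065 genes at 0.05, 2 of the 76 were called higher in HE (Mrpl2 and Mrpl4) and 7 were called lower (Mrpl13, Mrpl21, Mrpl24, Mrpl41, Mrps5, Mrps10 and Mrps16), and 67 were not called. Over all genes tested, 20.4% were called, 6.48% higher and 13.9% lower, against 2.63% and 9.21% of the mitoribosomal genes. Among 10008 other genes in the members' range of signal, 8.73% were called higher and 9.88% lower. The members' share called lower was thus close to that of genes of similar signal. An unadjusted p under 0.05 was reached by 23 of the 76 and by 36.9% of all genes. The median log2 fold change (HE minus NC) was -0.05 over the 76 genes and -0.06 over all genes, with 44 of the 76 below 0, but the members' median was positive, at 0.08, after normexp background correction, a model-based alternative that moved the median of all genes to -0.29. That correction called 5 members higher and 1 lower. When its arrays were also centred on their median gene, 18 were called higher and none lower, and over all genes the split was 3273 higher against 5589 lower, against 1787 and 7093 before centring. Quantile normalization gave 2 higher and 7 lower members, and 1900 higher against 2400 lower genes overall; in the main scaling the overall split was 1301 higher against 2789 lower.

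No member was called with slide as a fixed block, within slide 2 alone, on the arrays with high Xist alone, or with the mean of the thalamic markers as a covariate, where 205, 0, 77 and 1 genes were called in all. An unadjusted p under 0.05 was still reached by 10, 15, 12 and 5 members in those limma fits. The fitted differences of the 9 called members kept their direction in all 4 fits. Slide as a fixed block rests on the same 3 arrays as slide 2 alone and gave the same values. NC 5 is the only NC array among them. It had high Ddx3y, while HE 1 and HE 2 had high Xist, so slide 2 cannot tell the group from this pattern. The differences were larger with the block than without it for all but Mrpl4 (0.23 with the block, 0.31 without). With the block Mrpl2 stood at 0.54, Mrpl41 at -0.56, Mrps10 at -0.61 and Mrps16 at -0.47, against 0.45, -0.32, -0.36 and -0.28 without it. With the thalamic covariate Mrpl2 stood at 0.62, Mrps5 at -1.01 and Mrpl21 at -0.34, while Mrpl41 stood closer to 0, at -0.13, and Mrpl13 at -0.16. Without NC 1, NC 2 and NC 4 together, 3 members were called lower and none higher. The 7 lower calls also depended on single arrays: 0 members were called lower without HE 1, NC 2 or NC 5, 1 without HE 2, 2 without HE 4, 3 without HE 3 and 4 without NC 3. Without HE 5 none of the 7 was called, and the 1 member called lower there was Mrpl49. The higher calls numbered 1 without any single HE array, NC 2 or NC 5, and 3 without NC 3 or NC 4.

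**Figure D1:**
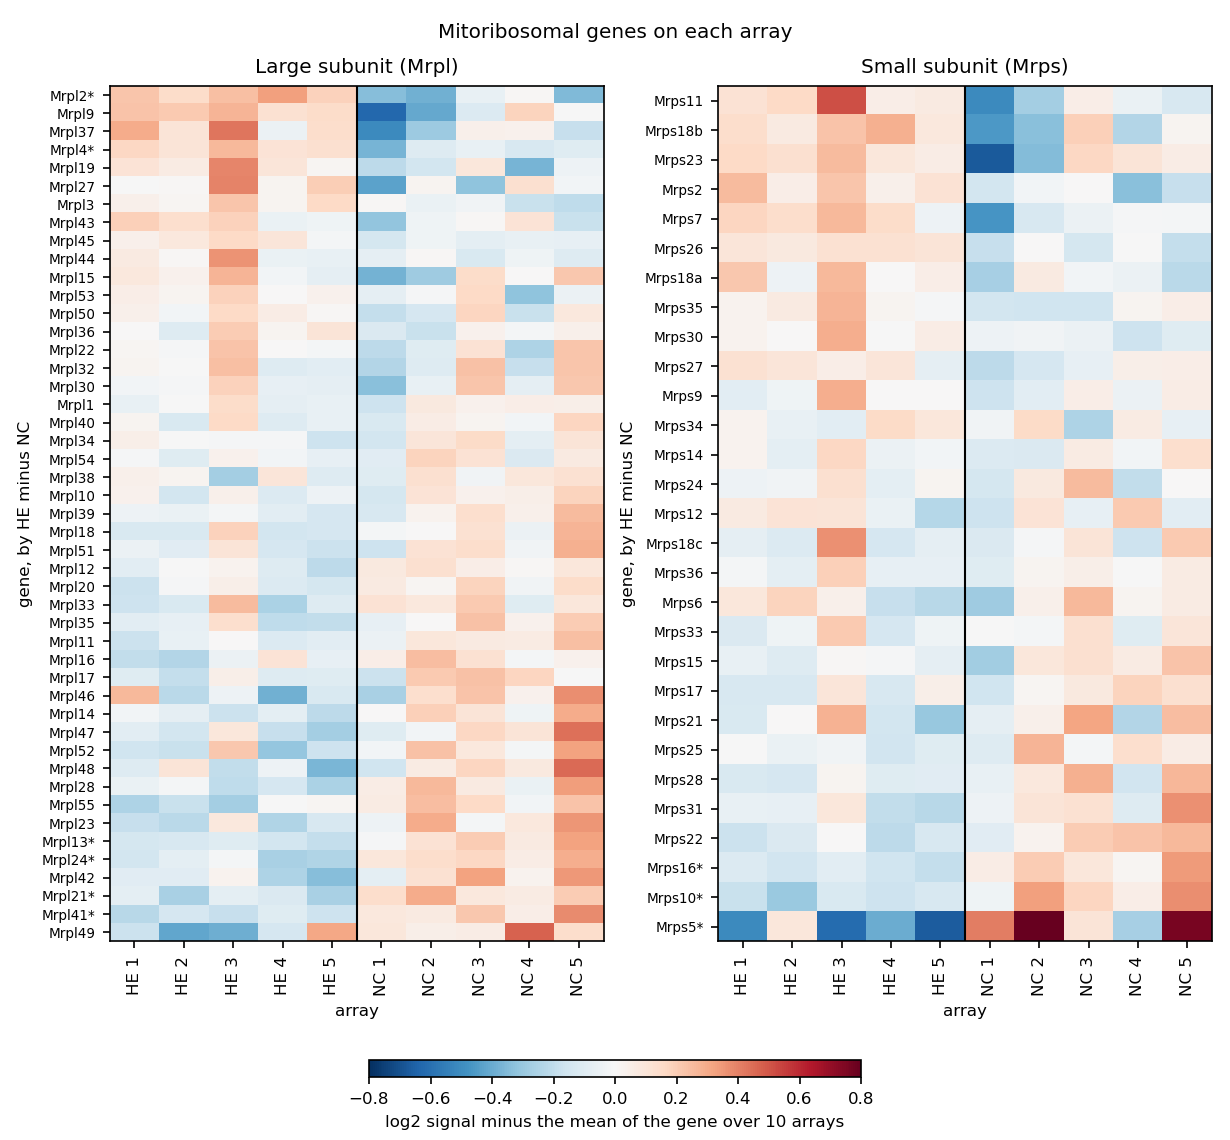
Each cell is the log2 signal of a gene on an array minus its mean over the 10 arrays, with the large subunit on the left, the small subunit on the right, HE arrays left of NC arrays, and genes ordered by HE minus NC; an asterisk marks the 9 called genes and colours stop at 0.8 in either direction. The median over the 76 genes is highest on HE 3 among HE arrays (2.45) and on NC 5 among NC arrays (2.59).

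Within the group, the differences were small and the spread between arrays narrow. The median absolute log2 fold change was 0.17 over the 76 genes and 0.21 over the 10008 other genes in the same range of signal. The median SD within a group was 0.13 for members and 0.26 over all genes. The members were also brighter, with a median level of 2.39 against -0.955 over all genes. The SD was not compared within the same range of signal. The groups did not overlap for 13 members, with HE above NC for 7 and below NC for 6, against 5.57% and 11% of all genes. The large subunit had a median of -0.13, with 2 of 47 called higher and 4 lower. The small subunit had a median of 0.00, with none of 29 called higher and 3 lower. These are medians of the fold changes. The per-array medians differed, HE minus NC, by -0.11 for the large and -0.13 for the small subunit, so their order depended on the measure.

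Mrpl2 encodes a large-subunit protein whose bacterial counterpart lies beside the peptidyl transferase centre. On the log2 scale relative to each array's 75th percentile, Mrpl2 stood at 1.20, 1.13, 1.22, 1.31 and 1.16 in HE 1 to HE 5, against 0.64, 0.59, 0.92, 0.99 and 0.63 in NC 1 to NC 5. Every HE array lay above every NC array, and NC 3 and NC 4 were the NC arrays closest to HE. The log2 fold change was 0.45 ± 0.10 (SE, n = 5 per group; limma adjusted p = 0.0173). Mrpl2 was called without each of the 10 arrays in turn and in 23 of 29 alternatives, and the fold change ranged from 0.40 to 0.71.

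Mrpl4 encodes the relative of bacterial L4, which lines the tunnel through which the new chain leaves the ribosome. It stood at 1.23, 1.17, 1.33, 1.18 and 1.20 in HE, against 0.70, 0.96, 1.01, 0.94 and 0.97 in NC. The groups did not overlap, and NC 1 was the lowest array. The log2 fold change was 0.31 ± 0.08 (SE; limma adjusted p = 0.0315), and the call was lost without any single HE array, NC 2 or NC 5.

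Among the large-subunit genes called lower, Mrpl41, a mitochondria-specific protein also studied in cell death, was lower on both of its probes. Its main probe stood at 4.37, 4.46, 4.41, 4.50 and 4.43 in HE, against 4.68, 4.67, 4.81, 4.65 and 4.97 in NC. No array of one group reached the other, and NC 5 was the highest. Its log2 fold change was -0.32 ± 0.09 (SE; limma adjusted p = 0.0289). A much dimmer probe further along the same transcript averaged -5.40 in HE and -4.91 in NC, against 4.43 and 4.75 on the main probe. This dimmer probe was also called lower, at -0.49 ± 0.13 (SE, limma adjusted p = 0.0285 over all probes).

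Mrpl21 stood at 2.05, 1.87, 2.05, 2.01 and 1.87 in HE, against 2.27, 2.42, 2.21, 2.19 and 2.33 in NC. The groups did not overlap, and the log2 fold change was -0.32 ± 0.08 (SE; limma adjusted p = 0.0262). Mrpl24, whose bacterial relative binds early in the assembly of the large subunit, stood at 2.39, 2.46, 2.52, 2.28 and 2.29 in HE, against 2.63, 2.68, 2.70, 2.59 and 2.83 in NC. HE 3 came closest to the NC arrays, and the difference was -0.30 ± 0.08 (SE; adjusted p = 0.0338).

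Mrpl13, the relative of another bacterial assembly protein of the large subunit, stood at 3.58, 3.59, 3.62, 3.57 and 3.53 in HE, against 3.71, 3.83, 3.93, 3.79 and 4.04 in NC. The HE arrays were tightly grouped below all NC arrays, with a log2 fold change of -0.28 ± 0.08 (SE; limma adjusted p = 0.0378). Mrps10, a protein of the small subunit's head, stood at 2.08, 1.96, 2.13, 2.09 and 2.13 in HE, against 2.22, 2.58, 2.43, 2.31 and 2.63 in NC. Again the groups did not overlap, and the difference was -0.36 ± 0.10 (SE; adjusted p = 0.0312).

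Mrps16, mutated in a human inherited defect of mitochondrial translation, stood at 4.01, 3.96, 4.03, 3.96 and 3.93 in HE, against 4.18, 4.32, 4.21, 4.13 and 4.46 in NC. All HE arrays were below all NC arrays, and the log2 fold change was -0.28 ± 0.08 (SE; limma adjusted p = 0.0403). After normexp correction with centring, Mrpl13, Mrpl21, Mrpl24, Mrpl41, Mrps10 and Mrps16 had differences of 0.03 to 0.17, none of them called. In the main scaling each of these 6 genes lost its call without HE 1, HE 2, HE 5, NC 2 or NC 5, and each without at least 5 of the 10 arrays; without single arrays their fold changes kept their sign, from -0.23 to -0.41. NC 5, which shares slide 2 with HE 1 and HE 2, had the highest value of Mrpl13, Mrpl24, Mrpl41, Mrps10 and Mrps16.

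**Figure D2:**
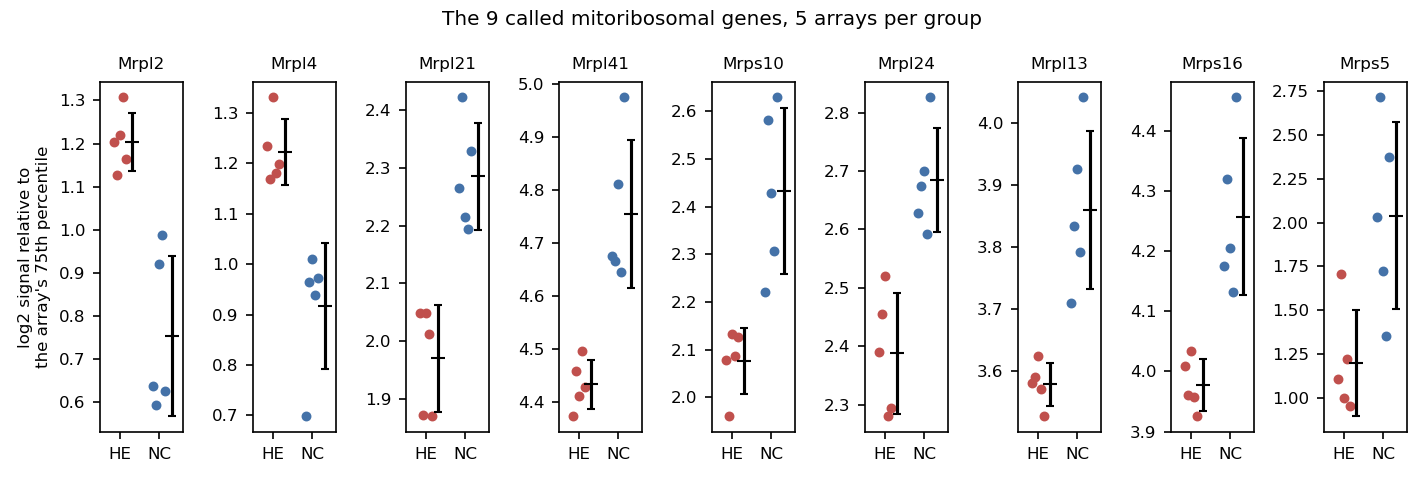
Points are the log2 signals of the 9 called genes on the 5 HE arrays (left in each panel) and the 5 NC arrays (right), with bars for the mean ± SD; each panel has its own axis. The groups overlap only for Mrps5, where HE 2 at 1.71 lies above NC 4 at 1.354.

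Mrps5, whose bacterial relative takes part in the accuracy of decoding, had the largest fitted difference of the 76 genes. Its brightest probe, which begins at base 143, stood at 1.11, 1.71, 1.001, 1.22 and 0.95 in HE, against 2.03, 2.71, 1.72, 1.354 and 2.38 in NC. The groups overlapped, with HE 2 above NC 4, and the log2 fold change was -0.84 ± 0.25 (SE; limma adjusted p = 0.0414). The call was lost without HE 1, HE 3, HE 4, HE 5, NC 1, NC 2 or NC 5. The further probes of Mrps5 were not called. The probe at base 852 averaged -0.43 in HE and -0.70 in NC (0.27 ± 0.12, SE; adjusted p = 0.13 over all probes), and the probe at base 1076 averaged 1.004 in HE and 0.98 in NC (0.03 ± 0.09, SE; adjusted p = 0.861). A probe on an Ensembl transcript, at base 4110, gave -0.19 ± 0.12 (SE; adjusted p = 0.266). Only 1 of the 4 probes of Mrps5 was called, and with the probe nearest to the 3′ end standing for the gene it was 0.03.

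Mrpl44, a large-subunit protein related to RNase III enzymes and mutated in an inherited human cardiomyopathy, was called higher on the probes further upstream. The probe at base 373 stood at -1.54, -1.82, -1.14, -1.74 and -1.56 in HE, against -3.12, -2.80, -2.08, -2.04 and -2.18 in NC, without overlap. Its log2 fold change was 0.88 ± 0.23 (SE; limma adjusted p = 0.0239 over all probes). The probe at base 765 was also higher in HE, by 0.43 ± 0.12 (SE; adjusted p = 0.033). The brightest probe, at base 1295, stands for the gene and was not called: 1.51, 1.45, 1.80, 1.39 and 1.38 in HE, against 1.37, 1.45, 1.32, 1.40 and 1.34 in NC, with only HE 3 far above the NC arrays. After normexp correction with centring this probe gave 0.45 and was called (limma adjusted p = 0.0401).

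Mrpl3, another large-subunit gene mutated in human cardiomyopathy, also had 1 called probe. The intron-crossing probe at base 771 stood at 0.18, 0.09, 0.49, 0.10 and 0.08 in HE, against -0.57, -0.56, -0.05, -0.17 and -0.38 in NC, so that every HE array was above every NC array. Its difference was 0.53 ± 0.13 (SE; limma adjusted p = 0.0208 over all probes). The brighter probe that stands for Mrpl3, at base 1246, gave 2.82, 2.80, 3.01, 2.81 and 2.94 in HE, against 2.80, 2.73, 2.76, 2.61 and 2.58 in NC. The groups again did not overlap, but the difference of 0.18 ± 0.08 (SE) was not called (adjusted p = 0.141). After normexp correction it was 0.32 and called (limma adjusted p = 0.0421), and with centring 0.54 (adjusted p = 0.0261).

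Over all entered probes of the 76 genes, 16 were called, 5 of them higher and 11 lower, against a background of 23.2% of probes, 7.71% higher and 15.5% lower. Without single arrays, the count of called member probes ran from 2 (without NC 2) to 21 (without NC 4). Called lower were also minor probes of Mrps9 (-0.82), Mrps15 (-0.59) and Mrpl52 (-0.40), each on a cDNA clone or Ensembl transcript other than the RefSeq transcript, while the probes that stand for these genes gave 0.07, -0.09 and -0.24 and were not called. Where a RefSeq transcript had entered probes at least 100 bases apart, the probe nearer the 5′ end was set against the probe nearer the 3′ end. For Mrpl45 these differences were 0.37 upstream and 0.15 downstream, and for Mrps9 they were 0.23 and 0.07. In 19 of 26 mitoribosomal transcripts the upstream probe had the more positive difference, against 2626 of 5165 transcripts of other genes (50.8%). For each array, the median over those other transcripts of the upstream minus the downstream log2 signal was taken. These medians averaged -1.69 ± 0.04 in HE and -1.68 ± 0.03 in NC (SD, n = 5 each). Their difference was -0.02 (exact permutation p = 0.437, two-sided), and the smallest p this design allows is 0.00794. Over the 26 mitoribosomal transcripts the array medians averaged -0.70 ± 0.02 in HE and -0.79 ± 0.09 in NC (SD, n = 5 each). This was a difference of 0.09 in the other direction, given with no test.

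**Figure D3:**
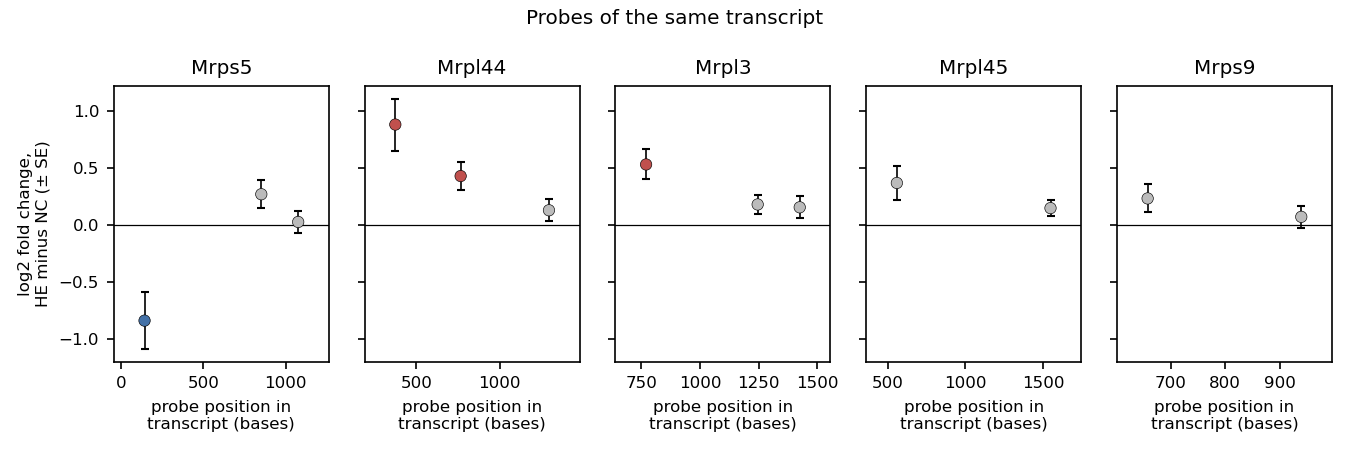
Points are log2 fold changes (HE minus NC) of the RefSeq probes of 5 genes against their first base in the transcript, with bars for the SE; red is called higher in HE, blue called lower and grey not called. Mrps5 runs from -0.84 at base 143 to 0.03 at base 1076, and Mrpl44 from 0.88 at base 373 to 0.13 at base 1295.

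The largest positive fitted differences after Mrpl2 were those of Mrpl9 and Mrpl37, and neither was called. Mrpl9, the relative of a bacterial protein that reaches out from the large subunit, stood at -0.72, -0.74, -0.68, -0.83 and -0.80 in HE, against -1.58, -1.36, -1.06, -0.77 and -0.95 in NC. NC 4 lay within the HE range, and the log2 fold change was 0.39 ± 0.15 (SE; limma adjusted p = 0.0803). Mrpl37, a mitochondria-specific protein of the large subunit, stood at -0.26, -0.45, -0.13, -0.60 and -0.42 in HE, against -1.07, -0.85, -0.52, -0.52 and -0.74 in NC. HE 4 lay below NC 3 and NC 4, and the difference was 0.37 ± 0.13 (SE; adjusted p = 0.0752).

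Mrpl49 had the largest negative fitted difference among the uncalled genes. It stood at 2.30, 2.06, 2.09, 2.34 and 2.78 in HE, against 2.57, 2.52, 2.53, 2.95 and 2.62 in NC. HE 5 lay above 4 of the NC arrays and NC 4 above all others, and the log2 fold change was -0.32 ± 0.15 (SE; limma adjusted p = 0.144). It was 0.03 after normexp correction with centring, and without HE 5 Mrpl49 was called lower, at -0.44. These values are those of its brightest probe. Its other RefSeq probes, at bases 569 and 953, gave -0.115 and -0.131 and were not called. The probe at base 569 stood at 2.175 on HE 5 and 2.147 on NC 4, without the high values seen there on the brightest probe.

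The Mrps18 paralogues Mrps18a, Mrps18b and Mrps18c share an ancestor with bacterial S18 and occupy different places in the particle. Mrps18a stood at 3.25, 2.99, 3.29, 3.03 and 3.08 in HE, against 2.77, 3.10, 3.01, 2.98 and 2.81 in NC, and the groups overlapped. Mrps18b stood at -0.999, -1.07, -0.92, -0.86 and -1.06 in HE, against -1.60, -1.48, -0.95, -1.38 and -1.12 in NC, where NC 3 lay within the HE range. Mrps18c stood at 2.96, 2.93, 3.397, 2.902 and 2.97 in HE, against 2.92, 3.02, 3.14, 2.87 and 3.25 in NC, with HE 3 above all other arrays. The log2 fold changes were 0.20 ± 0.10 for Mrps18a, 0.33 ± 0.13 for Mrps18b and -0.01 ± 0.12 for Mrps18c (SE). None was called, with limma adjusted p of 0.183 for Mrps18a, 0.0968 for Mrps18b and 0.97 for Mrps18c.

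Members known for roles or diseases beyond the shared structure were mostly not called either. Mrpl12, which forms the stalk of the large subunit and also binds the mitochondrial RNA polymerase, stood at 3.63, 3.71, 3.74, 3.61 and 3.51 in HE, against 3.80, 3.85, 3.77, 3.73 and 3.80 in NC. Only HE 3 overlapped the NC arrays, and the difference was -0.15 ± 0.08 (SE; limma adjusted p = 0.183). Mrps22, mutated in human mitochondrial disease, stood at 1.36, 1.41, 1.53, 1.32 and 1.40 in HE, against 1.44, 1.55, 1.73, 1.76 and 1.79 in NC. HE 3 lay above NC 1, and the difference of -0.25 ± 0.09 (SE) had an adjusted p of 0.0822. After normexp correction with centring both directions turned, to 0.27 for Mrpl12 and 0.17 for Mrps22, and neither was called.

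Mrps34, whose loss destabilises the small subunit, stood at 4.07, 3.98, 3.96, 4.195 and 4.13 in HE, against 4.01, 4.19, 3.79, 4.11 and 3.98 in NC. The groups overlapped throughout (0.05 ± 0.10, SE; limma adjusted p = 0.74). Mrps30, also studied in cell death, stood at 2.16, 2.14, 2.42, 2.13 and 2.19 in HE, against 2.09, 2.10, 2.08, 1.96 and 2.04 in NC. Every HE array was above every NC array, but the difference of 0.15 ± 0.08 (SE) was not called (adjusted p = 0.207). Mrps36, the 2-oxoglutarate dehydrogenase component, stood at 2.802, 2.74, 3.01, 2.76 and 2.76 in HE, against 2.72, 2.84, 2.87, 2.82 and 2.89 in NC. HE 3 was the highest array and the groups overlapped (-0.01 ± 0.08, SE; adjusted p = 0.924). For Mrps36 the 95% interval of the log2 difference was -0.19 to 0.17, and for Mrps34 it was -0.16 to 0.26.

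The direction of the fitted difference varied with probe brightness among the mitoribosomal genes. Brightness depends on the probe sequence as well as the RNA, so it does not rank the genes by RNA amount. Across the 76 genes the mean log2 signal and the log2 fold change had Pearson's r = -0.45 and Spearman's rho = -0.44, against r = 0.24 over all 20065 genes and r = 0.08 over 10008 other genes in the same signal range. Genes are not independent replicates, and all share the same 10 arrays. Of the 38 brighter genes 26 were below 0, with none called higher and 4 lower, and of the 38 dimmer genes 18 were below 0, with 2 called higher and 3 lower. With normexp background correction r was -0.06.

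**Figure D4:**
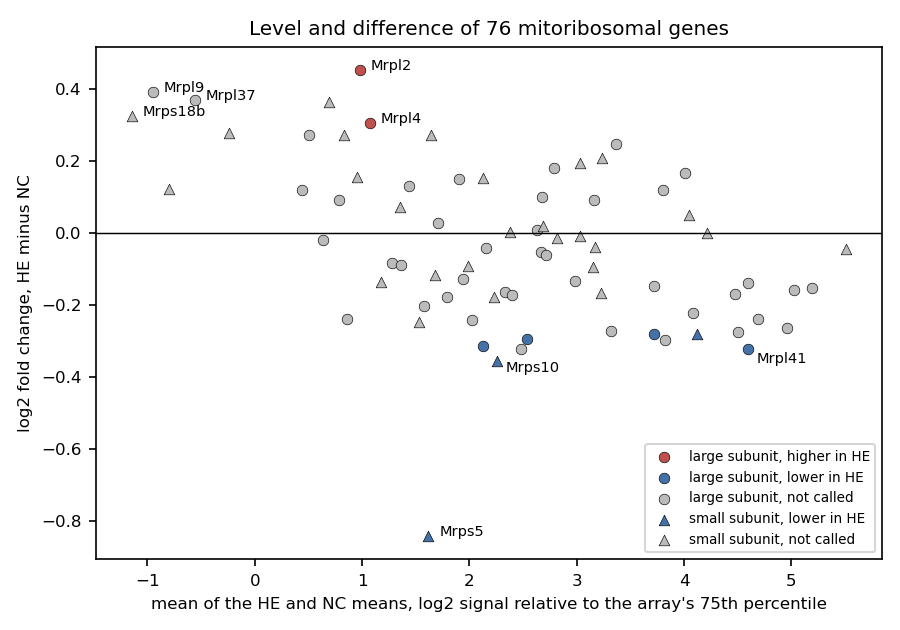
Each symbol is 1 of the 76 genes, placed by its mean log2 signal over both groups (horizontal) and its log2 fold change, HE minus NC (vertical); circles are large-subunit and triangles small-subunit genes. Mrpl2 and Mrpl4 lie at mean signals of 0.98 and 1.07, and Mrps5 lies apart at -0.84; the downward slope (r = -0.45) was -0.06 after normexp background correction.

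The signals of the members varied together from array to array within a group. Their per-array medians were 2.28, 2.22, 2.45, 2.29 and 2.31 in HE 1 to HE 5, against 2.29, 2.55, 2.55, 2.38 and 2.59 in NC 1 to NC 5. HE 3 was the highest HE array and NC 1 the lowest NC array, and the ranges overlapped. After the group means were taken out, the median Pearson correlation between 2 members over the 10 arrays was 0.43. Mrpl51 followed the median of the other members most closely (r = 0.98), while Mrpl2 (r = -0.02) did not follow it. Mrps34 ran against it (r = -0.47), as did the brightest probe of Mrpl49 (r = -0.37). No such correlation was computed for the other probes of Mrpl49. Outside the list, the genes most like the members' median by this measure were Rnf113a1 (0.98), Gm12770 (0.97), Polr2d, a subunit of RNA polymerase II (0.97), Mdh1, cytosolic malate dehydrogenase (0.97), and Ist1 (0.96). These correlations describe 10 arrays that share slides and scaling.

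Other proteins of the same ribosome or associated with it, which lack the Mrpl or Mrps prefix, had 1 of 8 called. This was Dap3, a GTP-binding protein of the small subunit, which averaged 4.18 in HE and 4.57 in NC. Its log2 fold change was -0.40 ± 0.11 (SE, limma adjusted p = 0.0337). Dap3 rested on its brightest probe, since another probe gave 0.16, and after normexp correction with centring it was 0.09. Its call was also lost without HE 1, HE 3, HE 5, NC 2 or NC 5. The median of these 8 genes was -0.16.

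Factors that assemble the particle or modify its RNA had 3 of 25 called higher and 1 lower in HE, with a median of -0.06. Noa1, a GTPase needed for the small subunit, averaged -0.39 in HE and -0.93 in NC (0.54 ± 0.12, SE; limma adjusted p = 0.018), and was called without each of the 10 arrays in turn. After normexp correction its difference was 0.29 and not called (adjusted p = 0.0516), and with centring it was 0.51 (adjusted p = 0.018). Rbfa, which binds the small subunit's RNA, was higher by 0.29 and Ddx28, an RNA helicase of large-subunit assembly, by 0.25. Rbfa lost its call without HE 1 or NC 5, and Ddx28 without HE 1, HE 3, HE 4, NC 2, NC 3 or NC 5. Rpusd4, which makes pseudouridine in the large subunit's RNA, averaged -1.22 in HE and -0.03 in NC (-1.19 ± 0.28, SE; adjusted p = 0.0204), a call lost without HE 1.

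Translation factors had none of 14 called higher and 4 lower in HE. These were Slirp, which with Lrpprc stabilises mitochondrial messenger RNAs (-0.35), the release factor Mtrf1l (-0.44), the ribosome recycling factor Mrrf (-0.46) and the elongation factor Guf1 (-0.28). All 4 lost the call without HE 4, HE 5, HE 1, NC 2 or NC 5, and after normexp correction with centring the differences were 0.05 for Slirp, 0.02 for Guf1, -0.17 for Mtrf1l and -0.09 for Mrrf. Of 20 genes for mitochondrial aminoacyl-tRNA synthetases and the related amidotransferase, which charge the transfer RNAs, 1 was called: Pars2 averaged -1.40 in HE and -1.86 in NC (0.46 ± 0.10, SE; limma adjusted p = 0.0155), and was called without each of the 10 arrays in turn. The difference of Pars2 was 0.05 after normexp correction (adjusted p = 0.81) and 0.27 with centring (adjusted p = 0.132).

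None of 9 genes of mitochondrial DNA transcription and maintenance was called by limma, and 3 of them had an unadjusted p under 0.05. Of 9 regulators of mitochondrial biogenesis only Gabpb1, a subunit of the GABP transcription factor, was called (0.39 ± 0.10, SE; adjusted p = 0.0254). Gabpb1's direction depended on the probe, with -1.03 for its dimmest probe and -0.30 for the mean of its probes, and it was -0.26 after normexp correction. Its call was lost without HE 1, HE 3 or HE 5.

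The nuclear genes of the respiratory chain and of the cytosolic ribosome had lower median log2 fold changes than the mitoribosomal genes in the main scaling. For complexes II to V this order depended on the measure. Their per-array medians differed by -0.04 (HE minus NC), against -0.16 for the mitoribosomal genes, -0.23 for complex I and -0.245 for the cytosolic ribosome. Complex I, listed by gene names that start with Nduf and not by the place of each protein, had none of 37 called higher. In that list 11 were called lower (29.7%), and the median was -0.24. Complexes II to V had none of 39 higher and 7 lower (17.9%), with a median of -0.16, and cytosolic ribosomal proteins had none of 81 higher and 18 lower (22.2%), with a median of -0.24. The 4 genes with the smallest p in each list were Ndufb7, Ndufa5, Ndufa4 and Ndufa7; Atp5k, Uqcr10, Uqcrh and Atp5o; and Rps24, Rpl38, Rps12 and Rps27a. All 12 had differences of 0.01 to 0.15 after normexp correction with centring, and none of them was called there. The difference between these lists and the mitoribosomal genes was not tested.

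**Figure D5:**
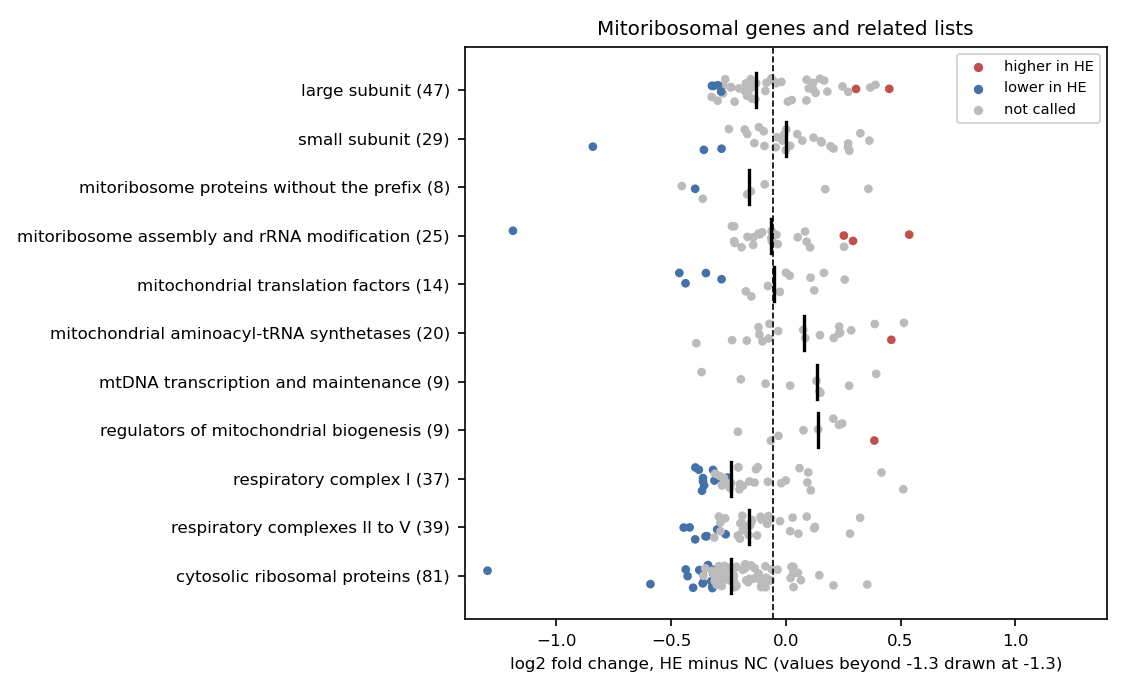
Each point is the log2 fold change (HE minus NC) of 1 gene in a list, with red called higher in HE, blue called lower and grey not called; short bars are list medians and the dashed line is the median of all genes, -0.06. Complex I and the cytosolic ribosomal proteins have medians of -0.24, the large subunit -0.13 and the small subunit 0.00, in the main scaling; after normexp correction with centring, the 4 genes named from each of complex I, complexes II to V and the cytosolic ribosomal proteins were above 0.

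Promoter sequence was examined because nuclear genes for mitochondrial proteins are known to be driven by GABP, an ETS factor, by NRF1 and by YY1. In the RefSeq promoter table (GRCm38.p6, 250 bases before to 50 after the start), 67 of the 76 genes had an entry. On either strand, CCGGAAG (the ETS core) was found in 23 of 67 (34.3%) against 9.1% of 27025 promoters, CATGCGC (NRF1) in 8 (11.9%) against 4.0%, and ATGGCGG (YY1) in 13 (19.4%) against 4.2%. Any of the 3 was found in 34 (50.7%) against 15.5%, and the NRF1 and YY1 motifs can share up to 3 bases. The median GC content was 58.0% in members and 52.7% over all promoters. Among the called genes, Mrpl2, Mrpl24, Mrpl41, Mrps10 and Mrps5 held no ETS match, Mrpl21 held 1 and Mrps16 held 2. Mrpl4 and Mrpl13 had no entry. Uncalled genes also differed: Mrpl43, Mrpl52 and Mrpl53 held 2 each, while others, such as Mrpl11 and Mrpl12, held none. A link between the motif and the calls was not tested. The promoter of Mrps16, called lower, is printed because it holds 2 ETS matches, shown in capitals as CTTCCGG on the printed strand. That of Mrpl21, also called lower, is printed because it holds 1 match.
Mrps16 (chr14:20393441-20393740, minus strand): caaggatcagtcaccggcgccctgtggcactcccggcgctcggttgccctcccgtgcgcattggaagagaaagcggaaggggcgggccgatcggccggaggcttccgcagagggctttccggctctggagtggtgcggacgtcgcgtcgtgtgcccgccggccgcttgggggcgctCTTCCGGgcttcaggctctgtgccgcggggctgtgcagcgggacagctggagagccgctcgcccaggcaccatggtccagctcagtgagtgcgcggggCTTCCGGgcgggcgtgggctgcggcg
Mrpl21 (chr19:3282792-3283091, plus strand): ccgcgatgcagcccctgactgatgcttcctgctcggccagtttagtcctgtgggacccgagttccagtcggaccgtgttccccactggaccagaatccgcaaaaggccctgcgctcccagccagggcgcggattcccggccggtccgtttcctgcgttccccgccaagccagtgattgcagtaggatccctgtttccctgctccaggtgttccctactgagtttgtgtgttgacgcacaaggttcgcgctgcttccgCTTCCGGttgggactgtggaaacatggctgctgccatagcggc

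Many members share their promoter region with a neighbour on the other strand. A start of another gene pointing away, at most 1000 bases off or overlapping by at most 100, was found for 24 of the 67 (35.8%) and for 3100 of all 27025 genes in the table. Mrpl46 and Mrps11, of the large and the small subunit, start 42 bases apart on chromosome 7, and their log2 fold changes were -0.20 and 0.36, neither called. Mrpl2, called higher, starts 141 bases from Klc4, a kinesin light chain gene (-0.21, not called). Mrpl41 and its neighbour Pnpla7 were both called lower, at -0.32 and -0.49, with starts 935 bases apart. Beside 4 uncalled members the neighbour was called in the main scaling. Fau beside Mrpl49 (-0.32) and Ndufb5 beside Mrpl47 (-0.26) were lower, and Hira beside Mrpl40 (0.63) and Ppp1r10 beside Mrps18b (0.49) were higher. Apart from these and Pnpla7, no neighbour tested was called. Over all genes tested 20.4% were called, and the neighbours were not tested as a set.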

How the data were processed

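Spot intensity on a linear scale was deposited per array, background-subtracted and detrended within the array per the file headers; the submitters' processing notes name Agilent Feature Extraction 10.7. A value table of log2 values was also deposited by the authors, with its normalization not stated; it matched log2 intensity after quantile normalization (slopes of 1.0022 to 1.0026 on the 10 arrays, column medians of 7.0334 to 7.0337), and no centring was seen. The log2 processed intensity was scaled by subtracting the 75th percentile of the 41174 probes on the same array. Outlier spots (68 to 129 per array) were left out, and the share of probes above background was 70.28% to 78.85%. A probe entered if well above background on at least 3 of 5 arrays of a group, and each gene stood on its entering probe with the highest mean. Groups were compared with limma 3.58.1 (R 4.3.3), two-sided, with Benjamini-Hochberg adjustment over 20065 genes (30978 probes for probe results) and a threshold of 0.05, checked on simulated data. There, changes were planted in 200 of 20020 genes, each with its own spread. The fit recovered 28.4% of log2 changes of 0.5, 61.2% of 1 and 83.3% of 2, so small differences can go uncalled. The number of arrays limits the precision. Every member may be named; array values were given for called members, the largest fitted differences, the Mrps18 paralogues and a fixed set with known roles, and up to 4 genes of each other list by smallest p, with their further called members. The neighbouring genes, Mrps9, Mrps15, Mrpl52 and the members named for their correlation were picked after their values were seen. Members and lists were chosen with earlier results of these data known. Probe gene names were updated through the RefSeq table. Alternatives covered slide, replicate block, background correction, scaling, filter, probe choice, left-out arrays and markers as covariates.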

Additional observations from a re-analysis of the deposited data

Results flagged for a closer look

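Of 50 groups of 5 arrays tested (22 named mitoribosomal genes and the medians of all members and of each subunit), 5 held an array whose gap to its nearest neighbour was large against the range of the group; chance marks about 1 in 20 groups. Of these, 3 were HE 3: Mrps18c at 3.40 there against 2.902 to 2.97 on the other HE arrays, Mrps36 at 3.01 against 2.74 to 2.80, and Mrps30 at 2.42 against 2.13 to 2.19. Mrpl4 stood at 0.70 on NC 1 against 0.94 to 1.01 on the other NC arrays, and Mrpl49 at 2.95 on NC 4 against 2.52 to 2.62. Another Mrpl49 probe, at base 569, stood at 2.147 on NC 4, within the range of the other NC arrays (1.969 to 2.636). HE 3 also had the highest members' median of the HE arrays, at 2.45.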

How the results depend on the processing

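Main counts were 7 members called lower, 2 higher, 16 member probes and 4090 genes, with a members' median of -0.05. The values below, in that order, moved furthest. Slide as a fixed block gave 0, 0, 0 and 205 with a median of -0.17; slide 2 alone gave 0, 0, 0 and 0 with -0.17; slide with the Xist pattern as a covariate gave 0, 0, 0 and 3 with -0.34. Arrays with high Xist alone gave 0, 0, 0 and 77, the thalamic mean as a covariate 0, 0, 0 and 1, and leaving out NC 1, NC 2 and NC 4 together 3, 0, 3 and 1921. Normexp background correction gave 1, 5, 18 and 8880 with a median of 0.08, and with centring on the median gene 0, 18, 30 and 8862 with 0.30. Without the filter on dim probes 3 were lower and 1 higher; with an intensity trend and robust prior 9 and 4. Leaving out 1 array at a time gave 0 to 9 lower, 1 to 3 higher, 2 to 21 probes, 1980 to 4214 genes and medians of -0.095 to -0.03. The replicate number as a block gave 1 lower, 1 higher, 8 probes and 3037 genes; the numbers do not pair the samples (correlations of -0.08 to 0.13, 2 of 5 best with their own number). Quantile normalization, the value table, slide as a random block, the stricter background filter and the Xist pattern as a covariate on all 10 arrays gave 7 or 8 lower and 2 higher, and the mean, lowest and 3′ probe of a gene 6 to 8 lower and 2 or 3 higher. The 3′ probe was an alternative chosen after seeing the data.

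Directions of called genes reversed after normexp with centring for Mrpl21 (0.090), Mrpl41 (0.102), Mrps10 (0.026), Mrpl24 (0.103), Mrpl13 (0.129), Mrps16 (0.174), Rps24 (0.044), Rpl38 (0.014), Rps12 (0.084), Rps27a (0.148), Slirp (0.049), Guf1 (0.019), Dap3 (0.088), Ndufb7 (0.111), Ndufa5 (0.015), Ndufa4 (0.088), Ndufa7 (0.099), Atp5k (0.062), Uqcr10 (0.050), Uqcrh (0.013), Atp5o (0.078) and Gabpb1 (-0.04). Gabpb1 was -0.26 after normexp, -0.30 for the mean of its probes, -1.03 for its lowest and for its 3′ probe, and -0.042 with slide and the Xist pattern. The lowest probe gave 0.052 for Rps12 and 0.16 for Dap3, and the 3′ probe 0.16 for Dap3 and 0.027 for Mrps5. Of the uncalled members named, Mrpl12 (0.271), Mrps22 (0.167), Mrpl49 (0.029), Mrps18c (0.422) and Mrps36 (0.392) also turned. Called higher there were Mrpl3 (0.541), Mrpl37 (0.444), Mrpl44 (0.450), Mrps18a (0.559), Mrps30 (0.510) and Mrps34 (0.456). Mrpl3 was also called higher after normexp without centring (0.322). The cause of these changes was not tested. Each array gives 1 value per probe, so precision rests on 5 arrays per group.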
